A study of Mus musculus with 8 samples.

Results

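Expression of 10 genes of plasmacytoid dendritic cells was compared between Estrogen and Vehicle libraries of sorted bone marrow B cells. The genes were taken by name from a list drawn up with earlier results of these data known, and were Siglech, Ccr9, Lair1, Cd300c, Ly6d, Tcf4, Runx2, Pacsin1, Cox6a2 and Klk1, out of 46983 genes in the count table. Each library held messenger RNA of cells that were labelled as bone marrow B cells of WT mice under the stress Hypoxia, and 4 libraries had the treatment Vehicle and 4 the treatment Estrogen. The labels give magnetic sorting (MACS) as the way the cells were isolated. Both groups were therefore hypoxic and wild type. In the sequencing experiment that the study describes, estrogen was used on the cells at a micromolar concentration. The labels do not give the time of treatment, the age of the mice or the source of each library (separate mice, pooled mice or cultures). The p-values therefore measure how far these libraries scatter, and that scatter may be technical.

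Plasmacytoid dendritic cells are a rare lineage of the bone marrow that senses viral nucleic acids in endosomes through Toll-like receptors and answers with large amounts of type I interferon. Their identity is set by the E protein TCF4, also called E2-2, which acts against Id proteins and switches on a programme that includes RUNX2. In mice they carry Siglec-H and, like B cells, the CD45 isoform B220. Several genes of the programme are not restricted to them. Tcf4 is also expressed in B cells, Ly6d marks B lineage progenitors and B cells, and Lair1 and Cd300c are also expressed in monocytes and macrophages.

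Between 30181834 and 39088597 reads were counted per library, and 3 reads, the detection floor, corresponded to 0.078 to 0.102 CPM (the share of a gene in the TMM-scaled library, times 1000000). Floors cover counting error only. The libraries carried the B lineage genes that the label calls for, and Cd79a lay between 1264 and 3146 CPM in all 8. Vehicle 3 stood apart in sex-linked genes, with Xist at 2.39 CPM against 470 to 1441 CPM elsewhere. Its Y-linked genes Ddx3y, Kdm5d, Uty and Eif2s3y were at 99.6, 56.9, 22.5 and 97.9 CPM, against at most 0.581 CPM elsewhere. Vehicle 3 thus had the profile of male cells and the others that of female cells, so sex was not balanced between the groups. Vehicle 4, Estrogen 2 and Estrogen 4 stood apart in another way. Their summed level of 12 B lineage markers was 7779, 6411 and 6549 CPM, where the remaining 5 ranged from 9394 to 12920 CPM. In these 3 libraries genes with a long exonic length, taken over all annotated exons, were also relatively high. The median deviation of the 3035 genes longest by this measure exceeded that of the 3035 shortest by 0.17 to 0.24 on the log2 scale. In the others this difference was -0.30 to -0.01.

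All 10 genes were well above the floor in every library. The lowest value was that of Klk1 in Estrogen 2, with 1112 reads or 31.4 CPM. Levels were also divided by exonic length, the bases of all annotated exons of a gene together, which can exceed the length of its transcripts. This length was 27382 bases for Tcf4 and 10260 for Ccr9, whose Vehicle means were 303 and 224 CPM. The order of genes by this measure is therefore approximate. Per kilobase of exonic length, Ly6d was highest, with a mean of 1951 CPM per kb in Vehicle and 1460 in Estrogen. Siglech followed with 194 and 305 CPM per kb and Cox6a2 with 125 and 133 (SD in Vehicle 55.9 and 7.75). Klk1 was at 57.7 and 51.0 CPM per kb and Cd300c at 40.2 and 47.6, and these neighbours did not differ beyond their spread. Ccr9, Lair1, Runx2, Pacsin1 and Tcf4 formed the lower end, between 11.1 and 21.9 CPM per kb in Vehicle and between 13.6 and 27.9 in Estrogen, and Lair1 did not differ from Runx2, nor Pacsin1 from Tcf4, beyond their spread.

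Of the 10 genes, 8 had a higher fitted level in Estrogen and 2, Klk1 and Ly6d, a lower one. Their median log2 difference (Estrogen minus Vehicle) was 0.32, beside -0.01 over the 15175 genes tested, of which 48.9% were higher in Estrogen. None of the 10 passed the quasi-likelihood test of edgeR at an adjusted p of 0.05 (Benjamini-Hochberg over all genes tested), and in that test 0% of all genes passed, where the DESeq2 Wald test called 1 gene, which was none of the 10. At an unadjusted p under 0.05, 3 members were higher in Estrogen and 0 were lower, where 344 genes (2.27%) were higher and 191 (1.26%) lower over the whole table (3.53% in either direction). Siglech and Runx2, 2 of the 10, were more than 1.5-fold higher, as were 4.97% of all genes. The levels of the 4 Estrogen libraries overlapped those of the 4 Vehicle libraries for all 10 genes, and 0.896% of all genes had every Estrogen library above every Vehicle library and 0.771% below. In bulk RNA, a different number of cells of a type and a different amount of RNA per cell cannot be told apart.

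**Figure D1:**
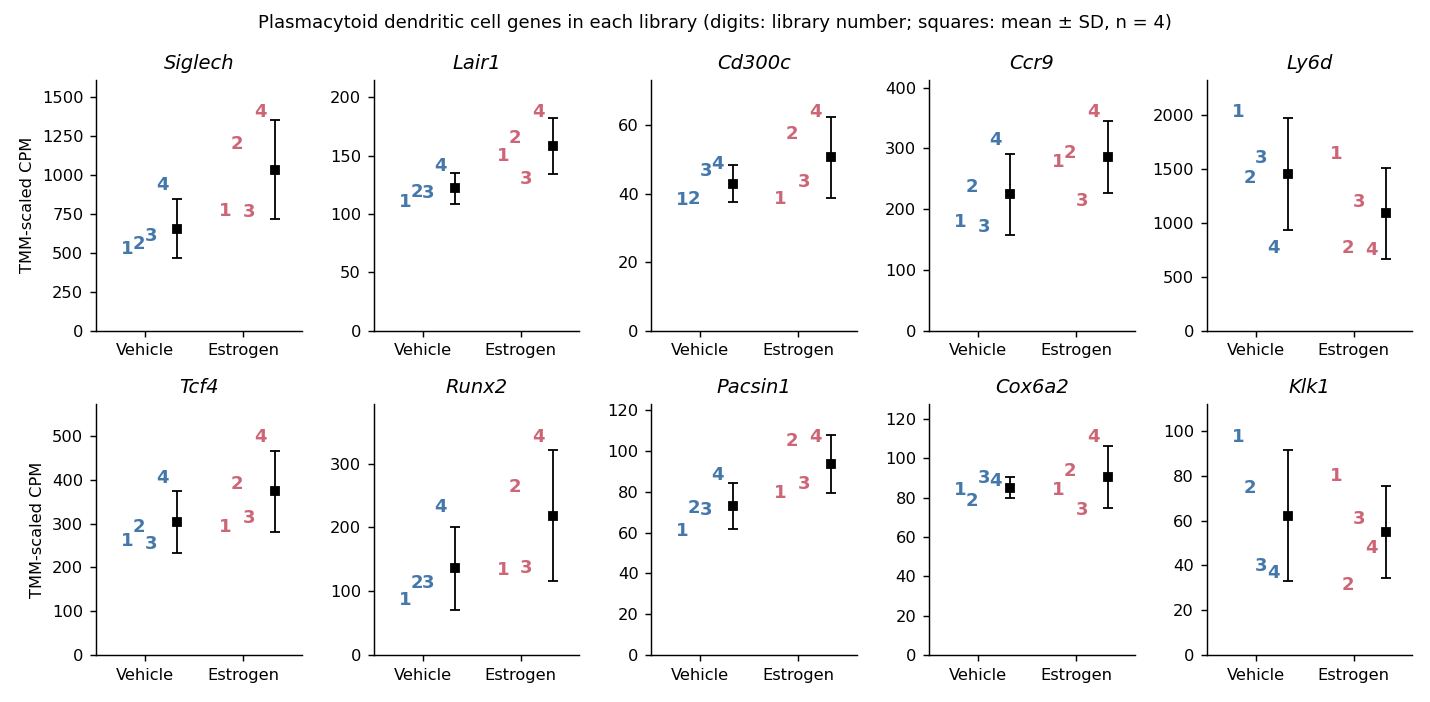
Level of each of the 10 genes in TMM-scaled CPM (linear axis from 0) in the 4 Vehicle and 4 Estrogen libraries, drawn as library numbers, with the group mean ± SD as a black square and bar (n = 4). Siglech ran from 523 CPM in Vehicle 1 to 1401 CPM in Estrogen 4, and Ly6d ran the other way, from 2023 CPM in Vehicle 1 to 745 CPM in Estrogen 4.

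Among the surface receptors, Siglech encodes Siglec-H, an endocytic lectin of mouse plasmacytoid dendritic cells that signals through the adaptor DAP12. It lies on chr7:55768178-55778925, plus strand, of GRCm38. Siglech was at 523, 554, 608 and 933 CPM in Vehicle 1 to 4 and at 771, 1197, 762 and 1401 CPM in Estrogen 1 to 4. Estrogen 2 and 4 were above all Vehicle libraries, whereas Estrogen 1 and 3 lay below Vehicle 4, so the groups overlapped. The means were 655 ± 189 CPM in Vehicle and 1033 ± 319 CPM in Estrogen (SD, n = 4 each), a log2 difference of 0.66 ± 0.25 (SE, 95% interval 0.09 to 1.22) with an edgeR p of 0.0274 and an adjusted p of 0.860. The difference was 0.48 without Estrogen 4, 0.88 without Vehicle 4 and 0.64 without Vehicle 3.

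The 300 bases around the RefSeq start of Siglech (GRCm38.p6, chr7:55767934-55768233, plus strand, 250 bases before the start and 50 after it) are shown because this gene is the reference for the library pattern described below. Capitals mark each CANNTG, the E-box letters that E proteins such as TCF4 read.
Siglech promoter: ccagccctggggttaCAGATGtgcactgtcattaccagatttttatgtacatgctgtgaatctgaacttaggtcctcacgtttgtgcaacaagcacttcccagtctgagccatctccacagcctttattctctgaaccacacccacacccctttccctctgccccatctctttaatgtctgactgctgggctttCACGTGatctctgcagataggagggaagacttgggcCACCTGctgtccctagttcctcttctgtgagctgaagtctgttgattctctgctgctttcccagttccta
The window held 3 E-boxes, of which 1 was CACCTG, and 1 TGTGGT, the core letters read by RUNX proteins, that overlapped none of them. Promoters were found for 7 of the 10 genes, and both strands were searched. CANNTG occurred in 6 of these 7 and in 72.3% of 32851 promoters of the same length, CACCTG, which is a form of CANNTG, in 4 and in 20.2%, and TGTGGT in 4 and in 16.8%. A match is a description of the letters and no evidence of binding.

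Ccr9, the receptor for the chemokine CCL25 and a marker of mature plasmacytoid dendritic cells, lies on chr9:123678439-123784330, plus strand. Ccr9 was at 178, 236, 170 and 314 CPM in Vehicle and at 278, 292, 214 and 359 CPM in Estrogen. Only Estrogen 4 was above every Vehicle library. The log2 difference was 0.35 ± 0.22 (95% interval -0.14 to 0.84, edgeR adjusted p = 0.860), and it was 0.22 without Estrogen 4, 0.56 without Vehicle 4 and 0.25 without Vehicle 3. Of the other chemokine receptors listed for these cells, Cxcr3 had a difference of 0.29 ± 0.12 and Ccr2 of -0.31 ± 0.16. None of the 6 receptors, Ccr9 included, passed the test, and 3 were higher and 3 lower.

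Lair1, an inhibitory receptor for collagen on chr7:4003402-4063204, minus strand, had the smallest p of the 10 genes. Its level was 110, 119, 118 and 141 CPM in Vehicle and 150, 165, 130 and 187 CPM in Estrogen. Every Estrogen library was above Vehicle 1 to 3, and only Estrogen 3 fell below Vehicle 4. The means were 122 ± 13.4 and 158 ± 24.0 CPM (SD, n = 4 each), with a log2 difference of 0.37 ± 0.13 (95% interval 0.09 to 0.65) and an edgeR p of 0.0151, the rank 88 of 15175 genes, which became 0.860 on adjustment. Leaving out 1 library moved the difference between 0.29 and 0.46.

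Cd300c, an activating receptor of the CD300 family on chr11:114956116-114969157, minus strand, was at 38.1, 38.3, 46.6 and 48.5 CPM in Vehicle and at 38.3, 57.3, 43.4 and 63.7 CPM in Estrogen. Estrogen 2 and 4 were above all Vehicle libraries and the others among them. The log2 difference was 0.24 ± 0.17 (95% interval -0.14 to 0.62, edgeR adjusted p = 0.860), and it was 0.12 without Estrogen 4. Over the 8 tested genes of the Cd300 family, Cd300c included, 7 were higher and 1 was lower, with a median of 0.37 and none past the test. Cd300a, an inhibitory member, was at 39.7 ± 4.32 and 53.3 ± 10.4 CPM, and Cd300lg, at 0.692 ± 0.315 and 0.258 ± 0.153 CPM, was the member with a lower value.

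The promoter window of Cd300c (GRCm38.p6, chr11:114960458-114960757, minus strand) is shown because, of the 7 promoters, it was the only one with both palindromic half-sites of the estrogen response element, GGTCA and TGACC with 3 bases between them, a stretch printed in capitals.
Cd300c promoter: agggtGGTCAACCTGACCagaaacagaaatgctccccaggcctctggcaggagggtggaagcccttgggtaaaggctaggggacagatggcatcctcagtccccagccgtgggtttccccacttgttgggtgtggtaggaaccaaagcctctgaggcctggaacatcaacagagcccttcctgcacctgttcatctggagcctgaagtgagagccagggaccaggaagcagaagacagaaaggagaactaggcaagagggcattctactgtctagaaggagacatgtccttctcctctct
This pattern occurred in 23 of 32851 promoters (0.07%). The RefSeq start lies inside the span that GENCODE gives the gene. The window also held 4 E-boxes and 1 TGTGGT outside the capitals. Binding was not measured, and an effect of this stretch on the level of Cd300c was not tested.

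Ly6d, a GPI-anchored surface protein that divides common lymphoid progenitors by B lineage bias, ran against the other receptors. It lies on chr15:74762056-74763620, minus strand. Ly6d was at 2023, 1419, 1596 and 769 CPM in Vehicle and at 1641, 769, 1191 and 745 CPM in Estrogen. Vehicle 4, Estrogen 2 and Estrogen 4 were low and the other 5 libraries high, whatever their group. The log2 difference was -0.42 ± 0.33 (95% interval -1.15 to 0.32, edgeR adjusted p = 0.860), and it was -0.20 without Vehicle 1, -0.28 without Estrogen 2, -0.27 without Estrogen 4 and -0.69 without Estrogen 1. Of 7 Ly6 genes, Ly6d included, 6 were lower and none passed. Ly6c2, which encodes the Ly6C antigen of these cells and of monocytes, was at 398 ± 114 and 259 ± 47.2 CPM, and Ly6a, which encodes Sca-1, at 290 ± 106 and 159 ± 59.3 CPM.

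Among the transcription factors, Tcf4 is the E protein that sets the identity of the lineage and lies on chr18:69343356-69689079, plus strand. Tcf4 was at 261, 293, 254 and 405 CPM in Vehicle and at 293, 390, 313 and 498 CPM in Estrogen. Estrogen 4 and Vehicle 4 were highest. The log2 difference was 0.30 ± 0.20 (95% interval -0.15 to 0.76, edgeR adjusted p = 0.860). It was 0.14 without Estrogen 4, 0.47 without Vehicle 4, 0.24 without Vehicle 3 and 0.16 with the trend on exonic length removed. The other E proteins differed less, with Tcf3 at -0.08 ± 0.13 and Tcf12 at 0.02 ± 0.11. Their antagonist Id2 was at 35.1 ± 4.39 and 45.4 ± 20.4 CPM and Id3 at 114 ± 31.7 and 84.3 ± 23.2 CPM, neither past the test.

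Runx2, a factor known from bone formation that also acts in the maturation and egress of plasmacytoid dendritic cells, had the largest fitted difference of the 8 higher genes. Among them Runx2 also had the widest range as a ratio, 3.96-fold from its lowest to its highest library. It lies on chr17:44495987-44814797, minus strand. Runx2 was at 86.2, 113, 113 and 232 CPM in Vehicle and at 133, 263, 136 and 342 CPM in Estrogen. Vehicle 4, Estrogen 2 and Estrogen 4 were high, and the other 5 libraries were low in both groups. The means were 136 ± 65.2 and 219 ± 102 CPM (SD, n = 4 each), with a log2 difference of 0.68 ± 0.38 (95% interval -0.17 to 1.54, edgeR adjusted p = 0.860). The difference was 0.39 without Estrogen 4, 1.07 without Vehicle 4 and 0.62 without Vehicle 3. Its relatives moved less, Runx1 by -0.04 ± 0.10, Runx3 by 0.07 ± 0.14 and the shared partner Cbfb by -0.13 ± 0.10 on the log2 scale. An overlapping antisense gene, Runx2os1, had a mean of 0.122 CPM in Vehicle and 0.222 in Estrogen.

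The Runx2 window (GRCm38.p6, chr17:44814578-44814877, minus strand) is shown because it held the most RUNX letters of the 7, 3 matches of TGTGGT or of its reverse complement, in capitals.
Runx2 promoter: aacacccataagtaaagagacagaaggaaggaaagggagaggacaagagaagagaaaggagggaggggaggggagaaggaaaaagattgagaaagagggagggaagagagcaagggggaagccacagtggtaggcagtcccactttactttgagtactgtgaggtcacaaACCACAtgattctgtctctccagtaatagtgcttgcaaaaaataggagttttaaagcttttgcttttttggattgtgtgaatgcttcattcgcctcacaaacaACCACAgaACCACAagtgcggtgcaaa
Of these 3, the first and the last overlapped a CANNTG. The other promoters with TGTGGT, those of Siglech, Cd300c and Pacsin1, held 1 each.

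Pacsin1, an adaptor of membrane trafficking needed for interferon production after TLR9 stimulation in these cells, was at 60.7, 72.2, 71.2 and 88.3 CPM in Vehicle and at 79.4, 105, 83.8 and 107 CPM in Estrogen (chr17:27655509-27711482, plus strand). All Estrogen libraries were above Vehicle 1 to 3, and Estrogen 1 and 3 were below Vehicle 4. The means were 73.1 ± 11.4 and 93.9 ± 14.4 CPM, with a log2 difference of 0.36 ± 0.14 (95% interval 0.05 to 0.68), an edgeR p of 0.0293 and an adjusted p of 0.860. The difference was between 0.30 and 0.47 with 1 library left out. Pacsin2, the broadly expressed paralog, was at 79.0 ± 4.07 and 79.3 ± 8.12 CPM.

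Cox6a2, the muscle isoform of a cytochrome c oxidase subunit that these cells also express, was at 84.0, 78.2, 90.0 and 88.4 CPM in Vehicle and at 84.1, 93.8, 73.6 and 111 CPM in Estrogen (chr7:128205435-128206387, minus strand). Estrogen held both the highest and the lowest library. The log2 difference was 0.09 ± 0.12 (95% interval -0.19 to 0.37, edgeR adjusted p = 0.874), and it was -0.02 without Estrogen 4. Its ubiquitous counterpart Cox6a1 was at 144 ± 27.9 and 136 ± 25.6 CPM. Itgad overlaps Cox6a2 on the opposite strand with 4.81 CPM in Vehicle and 7.90 in Estrogen, and reads of the overlap cannot be assigned without strand.

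Klk1, a secreted kallikrein protease on chr7:44225360-44229618, plus strand, was at 97.5, 74.8, 39.7 and 36.8 CPM in Vehicle and at 79.8, 31.4, 60.7 and 48.0 CPM in Estrogen. Its libraries were mixed in order, with Vehicle 1 and Estrogen 1 highest. The log2 difference was -0.18 ± 0.36 (95% interval -0.98 to 0.62, edgeR adjusted p = 0.905), and it turned to 0.14 without Vehicle 1 and to 0.02 without Estrogen 2. Klk1 is the least certain of the 10 because 24.0% of its windows of 50 bases also occur in other genes, mostly of the Klk1b family. The tested paralogs were low, Klk1b27 at 5.25 and 6.39 CPM and Klk1b11 at 1.99 and 0.827 CPM.

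**Figure D2:**
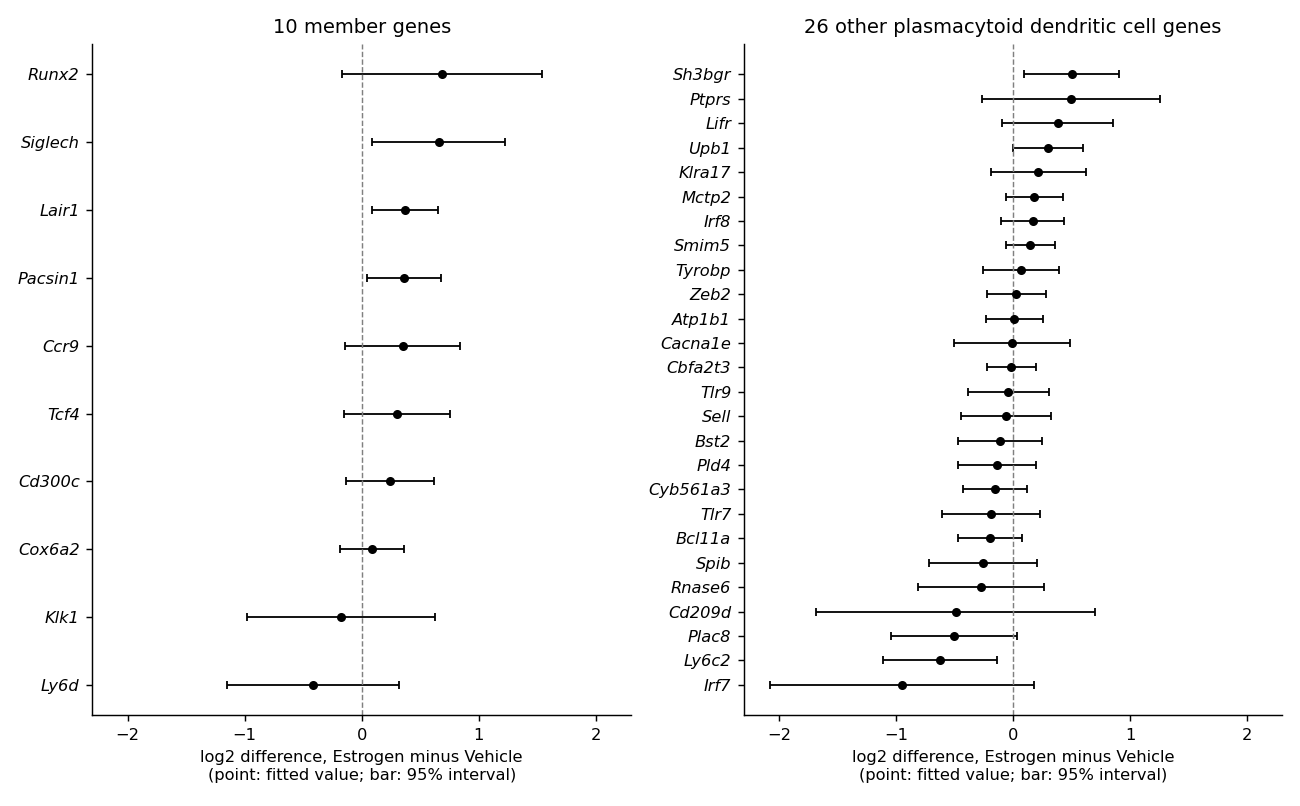
Fitted log2 difference, Estrogen minus Vehicle, with its 95% interval, for the 10 genes (left) and for 26 other genes of plasmacytoid dendritic cells (right), with a dashed line at 0. On the left 3 intervals, those of Siglech, Lair1 and Pacsin1, lie above 0, and on the right Sh3bgr lies above 0 and Ly6c2 below.

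The other genes of the lineage did not share one direction. Of 26 listed, 11 were higher in Estrogen and 15 were lower. The median of their log2 differences was -0.03, and none passed the test. Sh3bgr, with a log2 difference of 0.50 ± 0.18, and Upb1, at 29.4 ± 4.55 and 36.1 ± 3.93 CPM, were among the higher. Plac8, at 510 ± 151 and 359 ± 85.2 CPM, was lower together with Ly6c2. Bst2, the interferon-inducible antigen PDCA-1, was at 465 ± 87.2 and 430 ± 62.3 CPM, and Irf7, the factor that drives interferon genes, at 285 ± 164 and 148 ± 79.1 CPM, a log2 difference of -0.95 ± 0.50. The TLR7 and TLR9 pathway, 19 genes, had 9 higher and 10 lower with none past the test, and the gene with the smallest p was Ctsb, which encodes a lysosomal cathepsin, with a difference of 0.45 ± 0.16. Type I interferon itself was hardly transcribed. Of 18 interferon genes 7 had a read, and the libraries held between 0 and 8 such reads each.

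From library to library, 7 of the other 9 genes varied in the same direction as Siglech and 2 in the opposite one. The genes were listed with earlier results of these data known, and libraries were permuted across both groups. The p-values below therefore describe these 8 libraries and are no independent evidence that the genes vary together. Over the 8 libraries, log2 CPM of Siglech correlated with that of Runx2 at r = 0.976 and rho = 0.952, with exact permutation p adjusted over the 9 relations of 0.000446 for r and 0.00342 for rho. Pacsin1 gave r = 0.972 and rho = 0.952, and Lair1 r = 0.962 and rho = 0.952 (exact permutation p, adjusted, of 0.000446 and 0.000818 for r and 0.00342 for both rho). Tcf4 (r = 0.930, rho = 0.810), Cd300c (r = 0.893, rho = 0.905) and Ccr9 (r = 0.853, rho = 0.857) followed, with exact permutation p, adjusted, of 0.00246, 0.00652 and 0.0116 for r and 0.0280, 0.0103 and 0.0193 for rho. Cox6a2 was weaker at r = 0.719 and rho = 0.714 (exact permutation p, adjusted, 0.0451 and 0.0648). Ly6d ran opposite to Siglech at r = -0.895 and rho = -0.833 (exact permutation p, adjusted, 0.00696 and 0.0231), and Klk1 at r = -0.635 and rho = -0.643 did not pass (0.0974 and 0.0962). The unadjusted exact p of r was 9.92e-05 for Runx2 and Pacsin1, 0.000273 for Lair1, 0.00109 for Tcf4, 0.00362 for Cd300c, 0.00905 for Ccr9, 0.0401 for Cox6a2 and 0.00464 for Ly6d.

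The signs of all 9 relations held within the groups. With the group means removed, r with Siglech was 0.992 for Runx2, 0.949 for Pacsin1, 0.943 for Tcf4, 0.936 for Lair1, 0.906 for Cd300c, 0.801 for Ccr9, 0.786 for Cox6a2, -0.749 for Klk1 and -0.928 for Ly6d. Without Estrogen 4 and Estrogen 2, the libraries farthest from the median of Siglech, r remained 0.926 for Runx2, 0.929 for Pacsin1, 0.879 for Lair1, 0.836 for Tcf4, 0.770 for Ccr9 and -0.804 for Ly6d. It was 0.584 for Cd300c, -0.552 for Klk1 and 0.092 for Cox6a2, so the relation of Cox6a2 rested on those libraries. Among all 45 pairs of the 10 genes 29 had a positive r, and the median r was 0.732. Over the 10437 tested genes that averaged 5 CPM or more, the median r with Siglech was -0.204, and 2.94% were above 0.9. Estrogen 4 was the highest library for 8 of the 10 genes, and Vehicle 1 was the lowest for 5 and the highest for Klk1 and Ly6d.

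**Figure D3:**
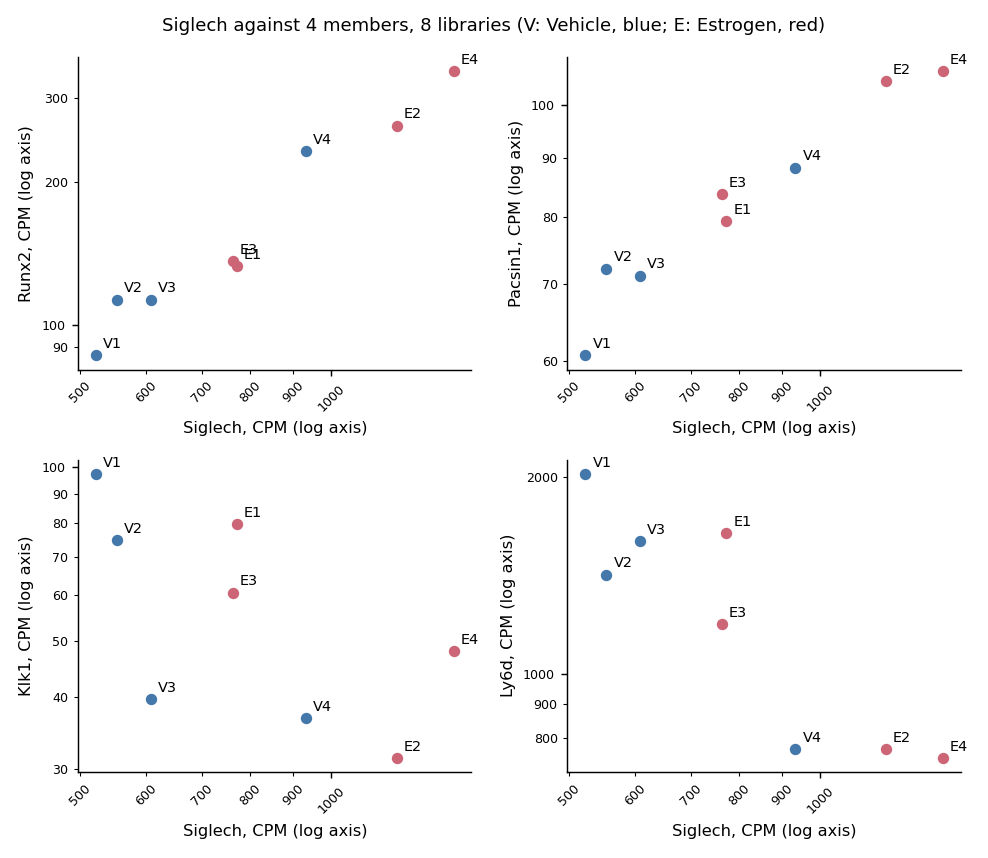
Level of Siglech (horizontal, CPM, log axis) against that of Runx2, Pacsin1, Klk1 and Ly6d (vertical, CPM, log axes) in 8 libraries, 4 Vehicle in blue and 4 Estrogen in red, 1 point per library. Runx2 (r = 0.976) and Pacsin1 (r = 0.972) rise along a line on which Vehicle 4 lies between Estrogen 1 and Estrogen 2, whereas Ly6d falls (r = -0.895) and Klk1 scatters (r = -0.635).

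The 26 other lineage genes did not follow Siglech as a set, with 12 at a positive and 14 at a negative r and 13 of them between -0.542 and 0.680. At the upper end, Sh3bgr (r = 0.967), the cytokine receptor gene Lifr (0.962), the phosphatase gene Ptprs (0.955), Smim5 (0.921) and the transcription factor gene Irf8 (0.880) went with Siglech, as a description over the same 8 libraries. At the lower end, Plac8 (-0.937), Spib (-0.933), Cyb561a3 (-0.903), Irf7 (-0.857), Ly6c2 (-0.855), Rnase6 (-0.799), Pld4 (-0.770) and Bst2 (-0.768) went against it. Spib and Plac8 are also expressed in B cells. Which cells carried the genes at either end was not tested. Bst2 ranged from 351 CPM in Vehicle 4 to 539 CPM in Vehicle 1 while Siglech was 933 and 523 CPM in these libraries. The genes most like Siglech outside the 10 were 4931406C07Rik (r = 0.991), Tacc2 (0.988), Fam234b (0.986), Eepd1 (0.985), Gria3 (0.982), Egfr (0.982), Tns1 (0.980), Tubgcp5 (0.979), Fyn (0.978) and Slc39a14 (0.977), ranked over the same 8 libraries.

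**Figure D4:**
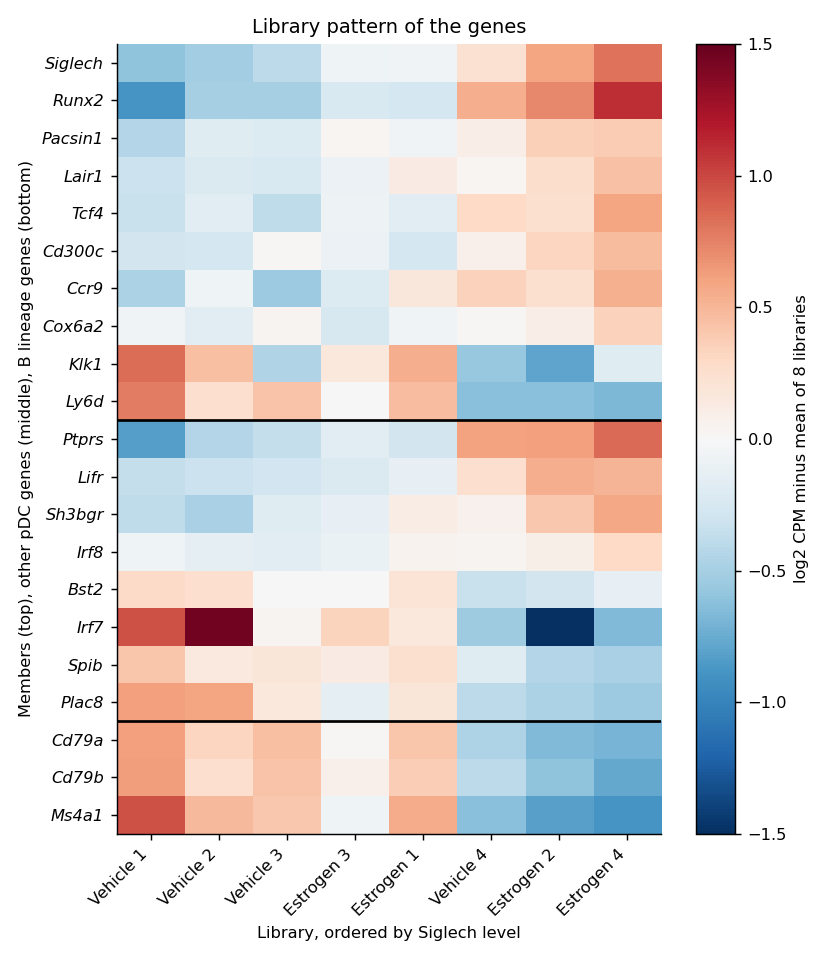
Log2 CPM of each gene minus its mean over the 8 libraries (colour, from -1.5 in blue to 1.5 in red), with libraries in columns ordered by Siglech and genes in rows, the 10 genes on top, other genes of the lineage in the middle and B lineage genes below. Vehicle 4, Estrogen 2 and Estrogen 4 on the right are red for Siglech, Runx2, Tcf4 and Ptprs and blue for Ly6d, Spib, Plac8, Cd79a, Cd79b and Ms4a1.

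Marker levels of other cell types also differed between these libraries. The 12 B lineage markers were all detected, 11 of them lower and 1 higher in Estrogen with none past the test, and their sum ran from 7779 to 12920 CPM in Vehicle and from 6411 to 11120 CPM in Estrogen. Ms4a1, which encodes CD20, was at 1849, 1331, 1262 and 619 CPM in Vehicle and at 1401, 542, 910 and 516 CPM in Estrogen, low in the same 3 libraries as Ly6d. The 12 macrophage and monocyte markers were 9 higher and 3 lower, none past the test, with a median of 0.53 and sums of 552 to 1206 CPM in Vehicle and 700 to 1511 CPM in Estrogen. Conventional dendritic cell markers had 6 of 10 higher and 4 lower with a median of 0.06. Early lymphoid progenitor markers had 4 of 7 higher and 3 lower, with a median of 0.21 and none past the test. The neutrophil sum was 3329 to 9117 CPM in Vehicle and 3420 to 9604 CPM in Estrogen, with Estrogen 4 near the low end of that range. Of 9 tested T and NK cell markers 2 were higher and 7 lower in Estrogen, with a median of -0.76 and none past the test. In 2 of them, Cd8b1 and Thy1, all 4 Estrogen libraries were below all 4 Vehicle libraries, as in 0.771% of all genes tested. Thy1 was low throughout, between 0.621 and 1.79 CPM. The T cell genes Cd3d, at 0.572 and 0.319 CPM, and Cd3e, at 0.410 and 0.228 CPM, were low in Vehicle and Estrogen. The part of these cells in the levels of the 10 genes was not tested. A further setting, chosen after the data were seen, removed the trend on exonic length from each library. The log2 difference was then 0.67 for Siglech, 0.63 for Runx2, 0.33 for Pacsin1, 0.32 for Lair1 and 0.31 for Cd300c. It was 0.29 for Ccr9, 0.20 for Cox6a2, 0.16 for Tcf4, -0.12 for Klk1 and -0.32 for Ly6d, and the median of the 10 was 0.30. Without this step Tcf4 had 0.30 and Cox6a2 0.09.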

How the data were processed

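The authors deposited raw read counts per Ensembl gene, 1 column per library. Tools named in the submitters' processing notes were CASAVA and Bowtie 0.12.2, with the build mm10. The read counter, annotation and strand setting: not given in the sources used here. Symbols, coordinates and exonic lengths came from GENCODE M21 on GRCm38 (46488 of 46983 identifiers matched), and promoters from RefSeq. The test was run with edgeR 4.0.16 (R 4.3.3): filterByExpr (15175 genes, 99.9% of reads), TMM, robust glmQLFit, a two-sided quasi-likelihood F-test of all 4 Estrogen against all 4 Vehicle libraries and Benjamini-Hochberg adjustment over all genes tested. Correlations used log2 CPM (prior count 2) and exact two-sided permutation of the 8 libraries (scipy 1.17.1). Tested on simulated counts of the same 15175 genes, the fit found 17 of 50 with a 1.5-fold change and 37 of 50 with a 2-fold change. The members and lists were chosen with earlier results of these data known. All 10 members were named, with up to 4 genes of smallest p per other list, paralogs that could share reads and the 10 nearest neighbours of Siglech. Genes named for their r with Siglech, other than these neighbours, and the marker genes of single libraries were chosen after their values were seen. Alternatives were DESeq2 1.42.0, limma 3.58.1 (voom), other scalings and filters, the replicate block and each library left out.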

Additional observations from a re-analysis of the deposited data

How the results depend on the processing

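None of the 10 genes passed an adjusted p of 0.05 in any of 18 other fits. Of these fits 17 were planned and 1 (exonic length trend removed) was chosen after the data were seen. Over all genes tested, 0 passed in edgeR, and 1 gene, none of the 10, passed with the replicate block, with the DESeq2 Wald test and with limma-voom with sample weights. The threshold of 0.1 also gave 0. Genes with an unadjusted p under 0.05 numbered 535, 2175 with the replicate block, 721 with DESeq2, 2297 with sample weights, 936 with no filter and 227 (without Estrogen 2) to 2156 (without Vehicle 4) with 1 library left out. The numbers paired the libraries only in part. Same-numbered libraries correlated at 0.674, -0.131, 0.080 and 0.554 for numbers 1 to 4 in their deviations from the group means. Libraries 1 were each other's closest partners, and so were libraries 4, but not libraries 2 or 3. Whether the libraries were paired is therefore not settled. Under the block the lowest adjusted p of a member was 0.168, for Siglech, at an unadjusted edgeR p of 0.00103. Directions held for 8 genes in all 18 fits. Cox6a2 reversed to -0.0172 without Estrogen 4, and Klk1 to 0.1408 without Vehicle 1 and to 0.0163 without Estrogen 2, within a range from -0.4164 (without Estrogen 1). The median of the 10 log2 differences ran from 0.18 without Estrogen 4 to 0.46 without Vehicle 4, and it was 0.37 with library totals, which moved the median of all genes to 0.05. The cause was not tested. The biological coefficient of variation was 22.7%.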

Other observations

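Some genes outside the lists of the lineage went with Siglech over the 8 libraries, and they were picked after their values were seen. Cd8a, the CD8 alpha chain that some plasmacytoid and conventional dendritic cells carry, was at 29.0, 29.8, 52.8 and 91.4 CPM in Vehicle 1 to 4 and at 38.2, 103, 41.2 and 133 CPM in Estrogen 1 to 4. It was highest in Estrogen 4, Estrogen 2 and Vehicle 4, the libraries highest in Siglech. Cd3e was between 0.145 and 0.546 CPM. Which cells carried Cd8a was not tested. Cd8b1, the beta chain, did not share that order and averaged 14.4 ± 0.965 CPM in Vehicle against 7.07 ± 0.996 CPM in Estrogen (SD, n = 4 each). Its edgeR adjusted p was 0.452. All 4 Estrogen libraries were below all 4 Vehicle libraries, as in 0.771% of all genes tested. Cd4 was lowest in Vehicle 3, at 40.3 CPM, and did not follow Siglech (r = 0.112 over 8 libraries, as a description).

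Flt3, a cytokine receptor gene, was at 56.9, 65.4, 77.1 and 123 CPM in Vehicle and at 89.9, 146, 76.5 and 160 CPM in Estrogen. Its order of libraries was close to that of Siglech (r = 0.984 with group means removed, as a description), and its log2 difference was 0.55 ± 0.29 and did not pass the test. Fyn, a kinase gene among the nearest neighbours of Siglech, was at 183, 215, 251 and 423 CPM in Vehicle and at 278, 488, 265 and 554 CPM in Estrogen. Il7r, the receptor of lymphoid progenitors, also was highest in Estrogen 4 and in Vehicle 4, at 383 and 311 CPM. In contrast Pax5 and Ebf1, which define the B lineage, had ranges of 725 to 1155 CPM and 344 to 476 CPM with r of -0.668 and -0.302 to Siglech, while Cd79a and Cd79b had r of -0.934 and -0.945.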
